A study of Saccharomyces cerevisiae with 18 samples.

Results

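The hexose transporter family of the budding yeast Saccharomyces cerevisiae was examined through its members HXT1 to HXT10. Members were taken by gene symbol from the deposited table of RNA counts. All 10 were among its 7118 genes and other features, and all 10 passed the filter on low counts, as did 6833 features in all. HXT1 (YHR094C, chromosome VIII, 290913 to 292625), HXT4 (YHR092C, VIII, 287081 to 288811) and HXT5 (YHR096C, VIII, 294669 to 296447) lie side by side on the minus strand of genome build R64, with 2101 bases between HXT4 and HXT1 and 2043 between HXT1 and HXT5. HXT3 (YDR345C, IV, 1162957 to 1164660), HXT6 (YDR343C, IV, 1159608 to 1161320) and HXT7 (YDR342C, IV, 1154216 to 1155928) form another such row on the minus strand, with 1636 bases between HXT6 and HXT3 and 3679 between HXT7 and HXT6. HXT9 (YJL219W, X, 19497 to 21200) and HXT8 (YJL214W, X, 26887 to 28596) lie 5686 bases apart on the plus strand, and HXT2 (YMR011W, XIII, 288079 to 289704) and HXT10 (YFL011W, VI, 112345 to 113985) stand alone on theirs. The positions are those of the coding sequences, and the annotation used places no other gene over any of them.

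RNA was sequenced from 18 samples, 3 in each of 6 groups. The aged groups were the double deletion (strain CGY69.30, genotype MAT@ msn2::HphNT1 msn4::NatNT2), the msn2 deletion (strain CGY61.46, MAT@ msn2::HphNT1) and wild type (strain CGY4.51, MAT@), each as bead-bound mother cells after 24 h of ageing in a Ministat Aging Device (MAD), a flow chamber. The young groups were the same 3 strains, taken as exponentially growing cells. All groups were grown or pre-grown in SC YNB medium without biotin, with 2% glucose, 2% MMP and DAPA at pH 4.5. Each genotype is a single strain. Whether replicates were separate cultures is not in the labels, and p-values then reflect only the spread of these samples, which may be technical. Each age comparison also covers growth mode, bead labelling and selected mothers against whole cultures, which cannot be told apart from age here. In RNA from many cells, fewer cells expressing a gene and less RNA per cell cannot be told apart either.

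Hexose transporters let glucose pass through the plasma membrane down its gradient, and yeast cells use different members at different glucose levels. Hxt1 and Hxt3 are known as low-affinity carriers of cells in ample glucose, and Hxt2, Hxt4, Hxt6 and Hxt7 as carriers of high affinity that are made when glucose is scarce. Hxt5 is moderate in affinity and known from slow growth, and Hxt8, Hxt9 and Hxt10 were not classed. Without glucose the repressor Rgt1 and its partners Mth1 and Std1 keep HXT genes off, and the membrane sensors Snf3 and Rgt2 lift that block. In ample glucose the repressors Mig1 and Mig2 hold down the high-affinity genes. Msn2 and Msn4 are related activators of stress genes that bind the stress response element (STRE).

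Levels below are CPM, a gene's count scaled to its library's total, with TMM factors, which correct for a few strong genes taking up a library. Aged double deletion libraries held 4078400 to 7136185 counts, and the other 15 held 25768602 to 41649952. The 10 members took 0.118% to 0.181% of the counts of aged libraries and 0.0314% to 0.0705% of those of young ones. MSN2 stood at 3.57 to 4.29 CPM (group means) in the 4 groups that lack it, against 33.4 and 41.7 CPM in aged and young wild type. MSN4 stood at 13.4 ± 1.29 CPM (mean ± SD, n = 3) in the aged double deletion and 21.4 ± 3.01 CPM in the young one, against 51.5 ± 2.38 and 42.6 ± 2.76 CPM in aged and young wild type, so it was lower but well above 0. All strains are labelled MAT@. The 4 MAT alpha markers summed to 3613 to 6115 CPM over all libraries and the 6 MAT a markers to 31.7 to 55.4 CPM, with none of them at 0 in any library. The 7 markers of daughter cells, none at 0, summed to 1577 to 1829 CPM in the aged double deletion, 1133 to 1271 in the aged msn2 deletion and 1074 to 1223 in aged wild type. In young cells they summed to 1391 to 1695 CPM in the double deletion, 1229 to 1434 in the msn2 deletion and 904 to 1002 in wild type. Of these 7 markers, 6 passed as higher in the aged double deletion than in aged wild type, where 16.6% of all tested genes did. In the young double deletion and msn2 deletion 7 and 6 were higher than in young wild type, where 17.9% and 15% of all tested genes were. With age 2 of them rose and 1 fell in the double deletion, 2 fell in the msn2 deletion and 4 rose in wild type, where about as many of all tested genes rose (31.2% to 36.6%) as fell (29.9% to 33%). Their part in the results below was not tested.

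The coding sequences of HXT6 and HXT7 are 99.8% identical, which bears on every value of this pair. Over the 45 pairs of members the next highest identity was 81.9%, for HXT1 and HXT3, and the lowest was 61.4%, for HXT5 and HXT10. HXT6 and HXT7 differ at 3 positions, T1632C, G1666A and T1677C, given as the HXT6 base, the position counted from 1 at the start codon, and the HXT7 base. These 3 positions fall within 60 coding bases near the stop codon, shown here 5′ to 3′ on the coding strand with the differing bases in capitals, for HXT6 at chrIV:1159641-1159700 and HXT7 at chrIV:1154249-1154308 (R64, minus strand).
HXT6: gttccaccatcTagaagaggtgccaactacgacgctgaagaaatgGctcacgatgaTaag
HXT7: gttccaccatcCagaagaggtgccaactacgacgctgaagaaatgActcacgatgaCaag
The 84 bases before both start codons are also identical. Of the 1564 stretches of 150 bases in either coding sequence, 82, or 5.24%, occur nowhere else in the genome. The corresponding share was 61.9% for HXT9, which is 97.2% identical to HXT11, and 100% for the other 7 members. The sources used here do not give how reads that match several genes were counted, so the split of reads between HXT6 and HXT7 is uncertain, and both are also given as a sum.

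The 1000 bases before each start codon were searched on both strands for 3 short motifs: AGGGG for STRE, CGGANNA for Rgt1 and CCCCNC for Mig1. The motifs and the stretches shown here were chosen after the expression values had been seen, and a match is a description of the letters only. HXT3 held 9 Rgt1 motifs and HXT1 held 8, and 0.0334% of 5996 promoters of that length held 8 or more. Those were 2 promoters, HXT3 and HXT1 themselves, since the 5996 include the members. HXT8 held 6, HXT5 held 4, and HXT2, HXT4, HXT6 and HXT9 held 3 each, HXT7 held 2 and HXT10 held none, where 66.5% of promoters held at least 1. HXT6 held 5 STRE motifs and HXT7 held 4, HXT5 held 2, and HXT1, HXT3, HXT4, HXT9 and HXT10 held 1 each, with none before HXT2 and HXT8. At least 1 STRE motif was in 55% of promoters, 4 or more in 2.23% and 5 or more in 0.634%. HXT4 held 5 Mig1 motifs, 3 of which overlap each other in a run of C, and HXT2 held 4, HXT6 and HXT7 3 each, HXT1 2, and HXT5, HXT8, HXT9 and HXT10 1 each, with none before HXT3. At least 1 Mig1 motif was in 40.7% of promoters and 5 or more in 0.884%. In the members 3 STRE and Mig1 matches overlap each other.

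**Figure D1:**
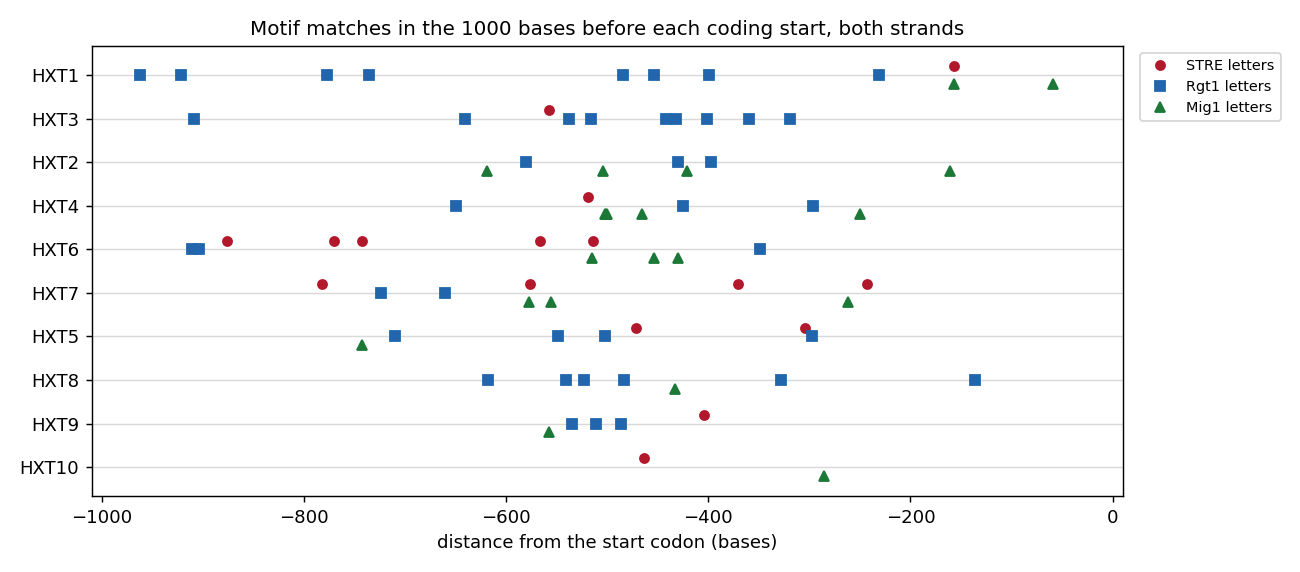
Positions of STRE, Rgt1 and Mig1 motif matches in the 1000 bases before each member's start codon, in bases from the start codon, 1 row per gene. Rgt1 matches are most numerous before HXT3 (9) and HXT1 (8), and STRE matches before HXT6 (5) and HXT7 (4).

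The first comparison was aged against young cells in each strain. In wild type 8 members were higher in aged cells and 2, HXT1 and HXT8, were lower, where 33.3% of all tested genes were higher and 30.6% lower. In the msn2 deletion 8 were again higher and HXT1 and HXT8 lower, against 36.6% and 33% of all tested genes. In the double deletion 7 were higher and 1 lower, against 31.2% and 29.9%, and HXT1 and HXT10 did not pass. Calls were made by edgeR's two-sided quasi-likelihood test at an adjusted p under 0.05 (Benjamini-Hochberg, over all 6833 genes). The members' median log2 fold change was 0.99 in the double deletion, 1.89 in the msn2 deletion and 1.47 in wild type, and that of all tested genes 0.03 in each. With library totals alone in place of TMM, the median of all genes was higher by 0.43 in the double deletion, 0.59 in the msn2 deletion and 0.50 in wild type, and 4104, 4927 and 4753 genes passed as higher against 827, 645 and 598 as lower. With TMM these counts were 2135, 2501 and 2272 higher against 2044, 2253 and 2093 lower.

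**Figure D2:**
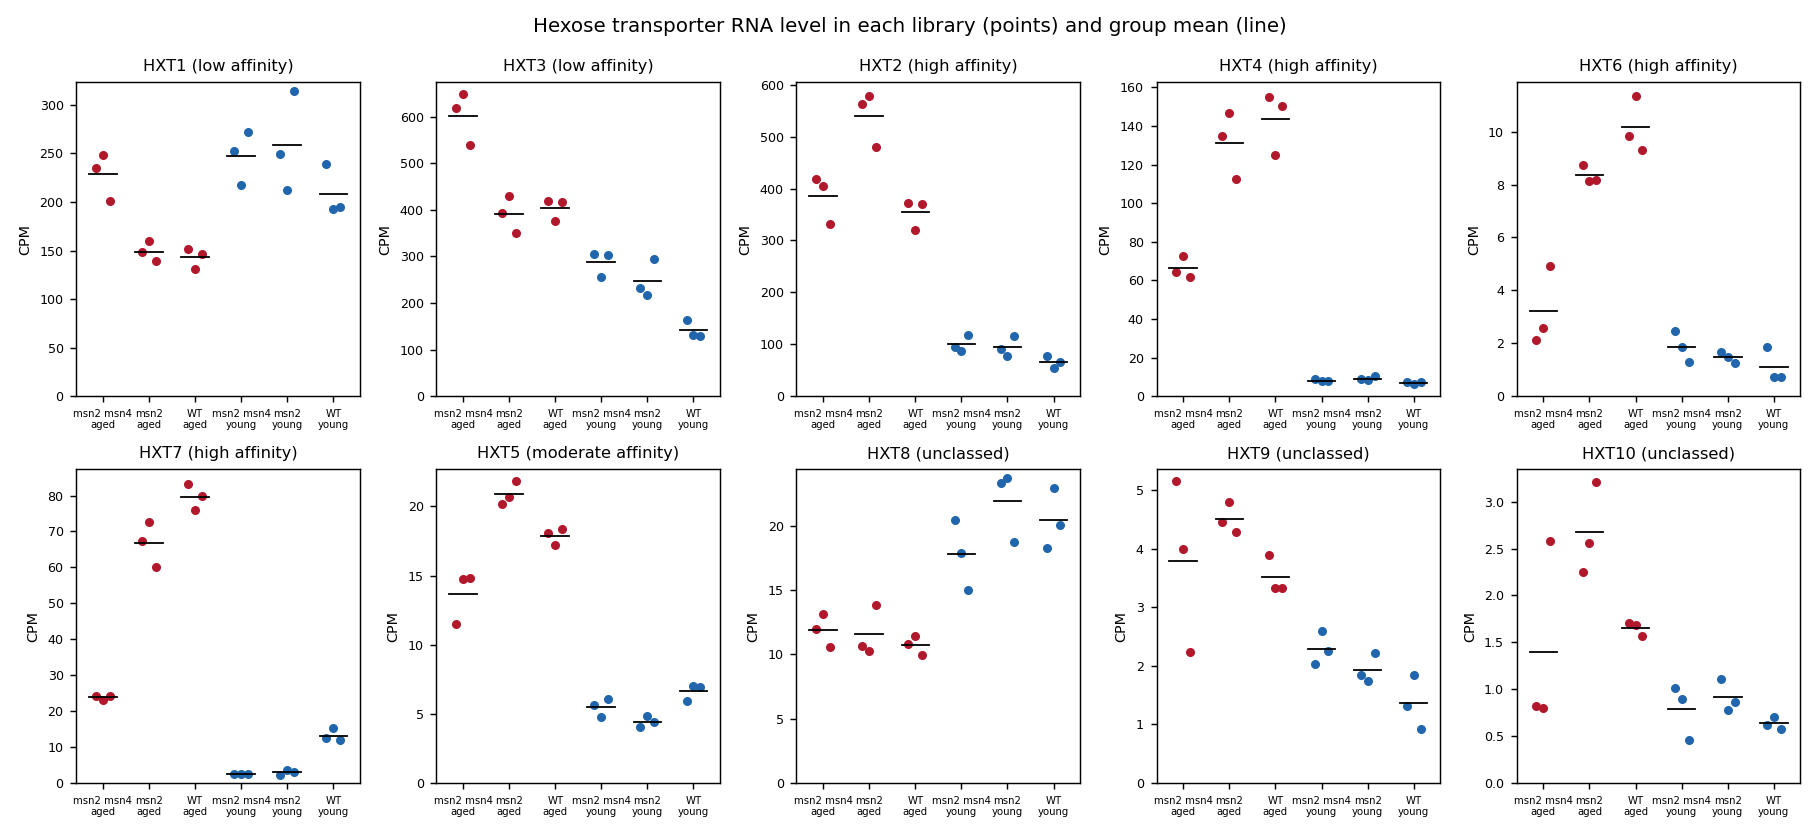
Level of each member in CPM on linear axes that start at 0 in each of the 18 libraries, 1 panel per gene, with aged groups left of young ones and a line at the group mean. HXT4 lies between 61.9 and 155 CPM in aged libraries and between 6.49 and 10.2 CPM in young ones, whereas HXT1 lies between 131 and 249 CPM aged and 192 and 314 CPM young.

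The low-affinity members differed: HXT3 rose with age in all 3 strains, and HXT1 fell in the msn2 deletion and wild type. Both have many Rgt1 motifs upstream, and the stretches that hold several of them are shown 5′ to 3′ on the coding strand with the motif letters of either strand in capitals, for HXT1 at chrVIII:293016-293115 and HXT3 at chrIV:1164971-1165110 (R64, minus strand).
HXT1: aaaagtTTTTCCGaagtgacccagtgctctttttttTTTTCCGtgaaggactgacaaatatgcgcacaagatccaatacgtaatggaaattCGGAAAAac
HXT3: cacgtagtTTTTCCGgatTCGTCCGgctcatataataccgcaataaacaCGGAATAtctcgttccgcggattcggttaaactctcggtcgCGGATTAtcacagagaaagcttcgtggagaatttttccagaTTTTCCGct
Relative to the start codon the HXT1 stretch covers positions -490 to -391 and the HXT3 stretch positions -450 to -311.

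HXT1 encodes the carrier typical of cells in ample glucose. It stood at 235, 249 and 202 CPM in the aged double deletion, 148, 159 and 139 in the aged msn2 deletion and 152, 131 and 147 in aged wild type. In young cells it stood at 252, 218 and 272 CPM in the double deletion, 250, 212 and 314 in the msn2 deletion and 239, 192 and 194 in wild type. Aged libraries lay below all young ones in the msn2 deletion and wild type, and overlapped them in the double deletion. HXT1 fell by 0.80 ± 0.127 (log2 ± SE) in the msn2 deletion and by 0.54 ± 0.127 in wild type, and its log2 fold change in the double deletion was -0.12 ± 0.128. Under library totals alone the values were -0.21 in the msn2 deletion and -0.04 in wild type, and neither passed. In the double deletion that setting raised the median of all genes by 0.43, more than the size of the HXT1 value there.

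HXT3 encodes the low-affinity carrier that is expressed over a wide range of glucose levels. It stood at 619, 648 and 540 CPM in the aged double deletion, 393, 430 and 351 in the aged msn2 deletion and 418, 376 and 416 in aged wild type. Its levels in young cells were 304, 257 and 303 CPM in the double deletion, 232, 217 and 295 in the msn2 deletion and 163, 132 and 129 in wild type. Aged libraries lay above young ones in every strain. HXT3 rose by 1.06 ± 0.122 in the double deletion, 0.66 ± 0.12 in the msn2 deletion and 1.51 ± 0.123 in wild type.

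All 4 high-affinity members rose with age in all 3 strains. By the deposited counts HXT2 was the most abundant of them per kb of coding length. The levels of HXT6 and HXT7 in that ranking depend on how reads matching both were counted. It stood at 418, 405 and 331 CPM in the aged double deletion, 563, 578 and 479 in the aged msn2 deletion and 373, 321 and 370 in aged wild type. Young cells had it at 95.6, 88.0 and 118 CPM in the double deletion, 91.1, 77.7 and 117 in the msn2 deletion and 78.0, 53.7 and 66.2 in wild type. No aged library overlapped a young one. HXT2 rose by 1.94 ± 0.154 in the double deletion, 2.51 ± 0.156 in the msn2 deletion and 2.43 ± 0.157 in wild type.

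HXT4 had the largest rise of any member in wild type. The part of its upstream sequence with 4 of its 5 Mig1 motifs, at positions -530 to -451 from the start codon (chrVIII:289262-289341, R64, minus strand), is shown 5′ to 3′ with those motifs in capitals.
HXT4: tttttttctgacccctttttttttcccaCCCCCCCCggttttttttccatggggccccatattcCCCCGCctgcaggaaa
HXT4 stood at 64.4, 72.7 and 61.9 CPM in the aged double deletion, 135, 146 and 113 in the aged msn2 deletion and 155, 125 and 150 in aged wild type. In young cells it stood at 8.71, 7.95 and 7.73 CPM in the double deletion, 8.90, 8.38 and 10.2 in the msn2 deletion and 7.47, 6.49 and 7.29 in wild type. Young libraries lay between 6.49 and 10.2 CPM in all strains, while aged double deletion libraries lay below those of both other aged strains. HXT4 rose by 3.03 ± 0.12 in the double deletion, 3.84 ± 0.117 in the msn2 deletion and 4.34 ± 0.12 in wild type, which is 8.14-fold, 14.4-fold and 20.3-fold.

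HXT7 and HXT6 encode near-identical high-affinity carriers. The 2 stretches shown 5′ to 3′ hold pairs of STRE motifs, in capitals as read on either strand, at positions -380 to -231 from the start codon of HXT7 (chrIV:1156159-1156308) and -580 to -501 from that of HXT6 (chrIV:1161821-1161900, both R64, minus strand).
HXT7: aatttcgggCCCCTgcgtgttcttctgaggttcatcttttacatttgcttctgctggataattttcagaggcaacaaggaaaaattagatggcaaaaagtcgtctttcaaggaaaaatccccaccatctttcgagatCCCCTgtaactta
HXT6: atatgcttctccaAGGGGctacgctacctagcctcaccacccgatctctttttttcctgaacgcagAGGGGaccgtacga
HXT7 stood at 24.2, 23.2 and 24.2 CPM in the aged double deletion, 67.4, 72.7 and 60.03 in the aged msn2 deletion and 83.3, 76.0 and 79.8 in aged wild type. Its levels in young cells were 2.54, 2.57 and 2.39 CPM in the double deletion, 2.17, 3.68 and 3.08 in the msn2 deletion and 12.4, 15.4 and 11.8 in wild type. The 3 aged strains did not overlap, and neither young deletion strain reached young wild type. HXT7 rose by 3.26 ± 0.153 in the double deletion, 4.49 ± 0.136 in the msn2 deletion and 2.59 ± 0.114 in wild type.

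HXT6 had far fewer reads assigned to it. It stood at 2.11, 2.6 and 4.93 CPM in the aged double deletion, 8.75, 8.15 and 8.16 in the aged msn2 deletion and 9.85, 11.3 and 9.31 in aged wild type. Young cells had it at 2.45, 1.85 and 1.30 CPM in the double deletion, 1.67, 1.47 and 1.27 in the msn2 deletion and 1.86, 0.707 and 0.732 in wild type. Aged and young libraries overlapped in the double deletion and were apart in both other strains. HXT6 rose by 0.83 ± 0.346 in the double deletion, 2.49 ± 0.258 in the msn2 deletion and 3.20 ± 0.269 in wild type. The double deletion's call was lost without aged replicate 3 of that strain (log2 0.32), without its young replicate 2 (0.83) and without its young replicate 3 (0.62), and with the libraries of that strain fitted alone (0.83), and the wild-type value was 3.81 without young replicate 1.

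The sum of HXT6 and HXT7 does not depend on how reads were split between them, but does depend on whether reads matching both were counted. It was 26.4, 25.8 and 29.1 CPM in the aged double deletion, 76.1, 80.9 and 68.2 in the aged msn2 deletion and 93.1, 87.4 and 89.1 in aged wild type. In young cells it was 4.99, 4.42 and 3.69 CPM in the double deletion, 3.85, 5.16 and 4.34 in the msn2 deletion and 14.2, 16.1 and 12.6 in wild type. The summed pair rose by 2.65 ± 0.131 in the double deletion, 4.08 ± 0.12 in the msn2 deletion and 2.65 ± 0.106 in wild type.

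HXT5, the moderate-affinity member known from slow growth and non-fermentable carbon sources, rose in all 3 strains. Its 2 STRE motifs lie in the stretch at positions -480 to -291 from the start codon (chrVIII:296738-296927, R64, minus strand), shown 5′ to 3′ with the motifs in capitals.
HXT5: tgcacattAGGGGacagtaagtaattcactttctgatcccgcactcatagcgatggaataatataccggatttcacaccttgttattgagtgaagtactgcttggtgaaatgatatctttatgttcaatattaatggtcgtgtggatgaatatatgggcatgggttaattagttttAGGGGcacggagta
HXT5 stood at 11.5, 14.8 and 14.8 CPM in the aged double deletion, 20.2, 20.7 and 21.8 in the aged msn2 deletion and 18.1, 17.2 and 18.3 in aged wild type. In young cells it stood at 5.66, 4.79 and 6.04 CPM in the double deletion, 4.06, 4.81 and 4.43 in the msn2 deletion and 5.96, 7.0 and 6.94 in wild type. Aged libraries lay above young ones in each strain. HXT5 rose by 1.31 ± 0.13 in the double deletion, 2.24 ± 0.115 in the msn2 deletion and 1.43 ± 0.11 in wild type.

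Of the members without a class, HXT8 fell with age in all 3 strains, HXT9 rose in all 3, and HXT10 rose in the msn2 deletion and wild type. HXT9 and HXT10 had low counts. HXT8, a gene known to be induced at low glucose, stood at 9.93 to 13.9 CPM over the 9 aged libraries and 15.04 to 23.7 over the 9 young ones, with no overlap. It fell by 0.59 ± 0.161 in the double deletion, 0.92 ± 0.133 in the msn2 deletion and 0.93 ± 0.135 in wild type. With library totals alone its value was -0.16 in the double deletion, which did not pass, and -0.33 in the msn2 deletion, which did. In wild type that setting raised the median of all genes by 0.50, so the size of the fall depends on the scaling. HXT9, known as a target of the drug resistance regulators Pdr1 and Pdr3, stood at 5.15, 4.00 and 2.23 CPM in the aged double deletion, 4.46, 4.80 and 4.29 in the aged msn2 deletion and 3.89, 3.33 and 3.33 in aged wild type. Its levels in young cells were 2.03, 2.6 and 2.25 CPM in the double deletion, 1.85, 1.75 and 2.22 in the msn2 deletion and 1.32, 1.85 and 0.925 in wild type. Aged and young libraries overlapped in the double deletion. HXT9 rose by 0.71 ± 0.265 in the double deletion, 1.23 ± 0.212 in the msn2 deletion and 1.36 ± 0.229 in wild type. The double deletion's call for HXT9 was lost without its aged replicate 1 (0.35), its aged replicate 2 (0.68) or its young replicate 1 (0.63), with libraries thinned to the smallest total (0.69), and with the libraries of that strain fitted alone (0.72). Summed with its near-identical relative HXT11, HXT9 rose by 0.86 ± 0.128, 0.95 ± 0.109 and 1.28 ± 0.113 in the same order of strains.

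HXT10 had the lowest mean level per kb of the members in every group. It stood at 0.820, 0.799 and 2.58 CPM in the aged double deletion, from 7, 4 and 22 counts, at 2.25, 2.56 and 3.21 CPM in the aged msn2 deletion and at 1.71, 1.69 and 1.57 CPM in aged wild type. Young cells had it at 0.457 to 1.014 CPM in the double deletion, 0.776 to 1.10 in the msn2 deletion and 0.578 to 0.707 in wild type. HXT10 rose by 1.53 ± 0.275 in the msn2 deletion and 1.37 ± 0.31 in wild type. With libraries thinned to the smallest total the wild-type value was 0.24 and did not pass, and the msn2 deletion value was 2.13. In the double deletion its log2 fold change was 0.93 ± 0.413, which passed without aged replicate 1 (1.27), aged replicate 2 (1.13) or young replicate 1 (1.13) of that strain. It also passed in DESeq2 (0.90) and with library totals alone (1.36).

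**Figure D3:**
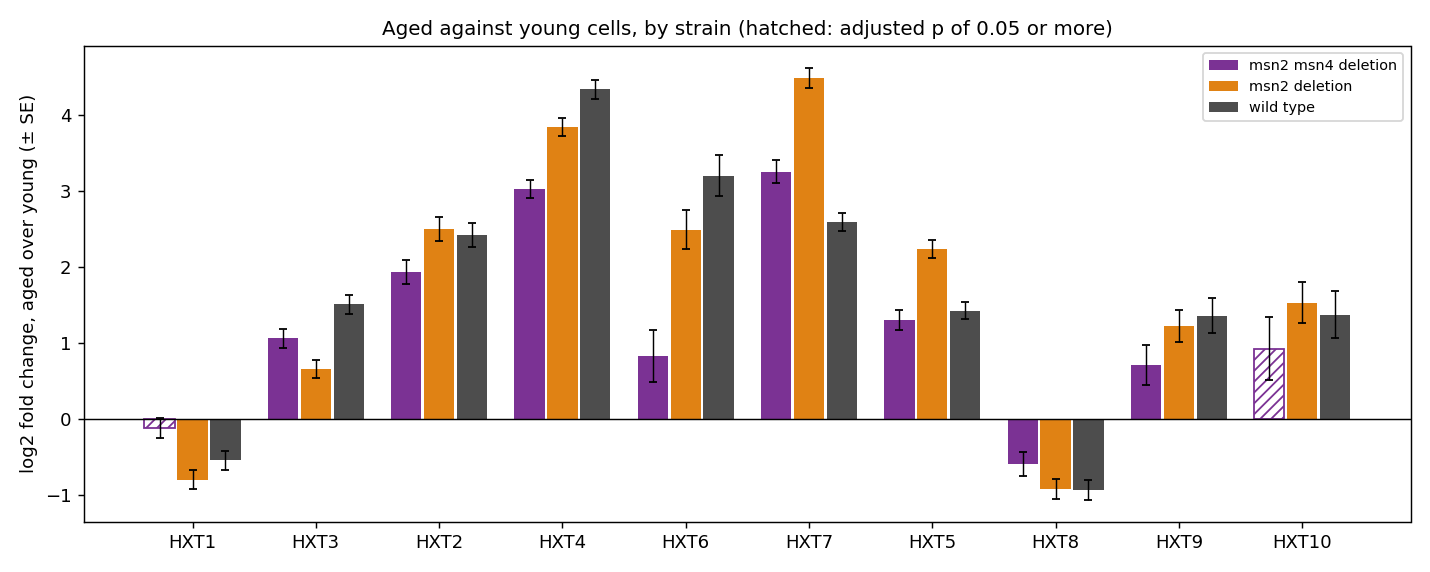
Log2 fold change of aged over young cells for each member and strain, with bars of 1 SE and hatching where the adjusted p was 0.05 or more. HXT1 and HXT8 lie below 0 in all 3 strains and the other 8 members above it, with HXT7 highest in the msn2 deletion (4.49) and HXT4 highest in wild type (4.34).

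The makeup of the family shifted between the ages, which is described here without a test. Levels are compared between genes as CPM per kb of coding length, and each value is a mean ± SD of 3 libraries. Only 5.24% of 150-base stretches of HXT6 and of HXT7 are unique in the genome. If reads that match both were left out of the counts, both genes and the high-affinity sum would be too low. The shares would then be off as well, which was not tested. HXT1 and HXT3 together stood at 487 ± 47.1 CPM per kb in the aged double deletion, 317 ± 29.2 in the aged msn2 deletion and 320.4 ± 20.1 in aged wild type. They stood at 314 ± 31.3 in the young double deletion, 297 ± 54.2 in the young msn2 deletion and 205 ± 26.5 in young wild type. HXT2, HXT4, HXT6 and HXT7 together stood at 291 ± 29.8, 452 ± 46.4 and 353 ± 28.7 CPM per kb in the aged double deletion, msn2 deletion and wild type, against 69.1 ± 9.20, 66.4 ± 12.5 and 53.0 ± 7.25 in young cells of the same strains. Both sums were thus higher in aged wild type than in young wild type, and the high-affinity sum more so.

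The low-affinity share of those 6 genes was 62.6 ± 0.737% in the aged double deletion, 41.2 ± 0.752% in the aged msn2 deletion and 47.6 ± 0.486% in aged wild type. In young cells it was 82.0 ± 1.02%, 81.7 ± 0.124% and 79.4 ± 1.06% in the same order of strains. The lowest young library stood at 78.3% and the highest aged one at 63.2%, so the ages were apart. Among the aged strains the 3 groups did not overlap either, with 61.8% to 63.2% in the double deletion, 40.4% to 41.8% in the msn2 deletion and 47.2% to 48.1% in wild type.

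Of the 10-member sum in CPM per kb, HXT1 took 12.1 ± 0.125% in aged wild type and 44.3 ± 0.474% in young wild type. HXT2 took 31.4 ± 0.448% in aged and 14.7 ± 1.55% in young wild type, and HXT4 11.9 ± 0.525% in aged and 1.5 ± 0.126% in young wild type. HXT3 was the largest in aged wild type, with 34.2 ± 0.46%, against 30.2 ± 0.795% in young wild type. HXT1 was thus the largest share in young wild type. In aged wild type it came after HXT3 and HXT2 and did not differ beyond the spread from HXT4. In the aged msn2 deletion the largest share was HXT2, with 42.0 ± 0.8%, and in the aged double deletion HXT3, with 44.4 ± 0.464%. In young double deletion cells HXT3 also led, with 42.5 ± 1.09%, and HXT1 followed with 36.3 ± 0.583%. HXT1 and HXT3 did not differ beyond their spread in the young msn2 deletion, with 39.6 ± 1.30% and 38.3 ± 0.824%.

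**Figure D4:**
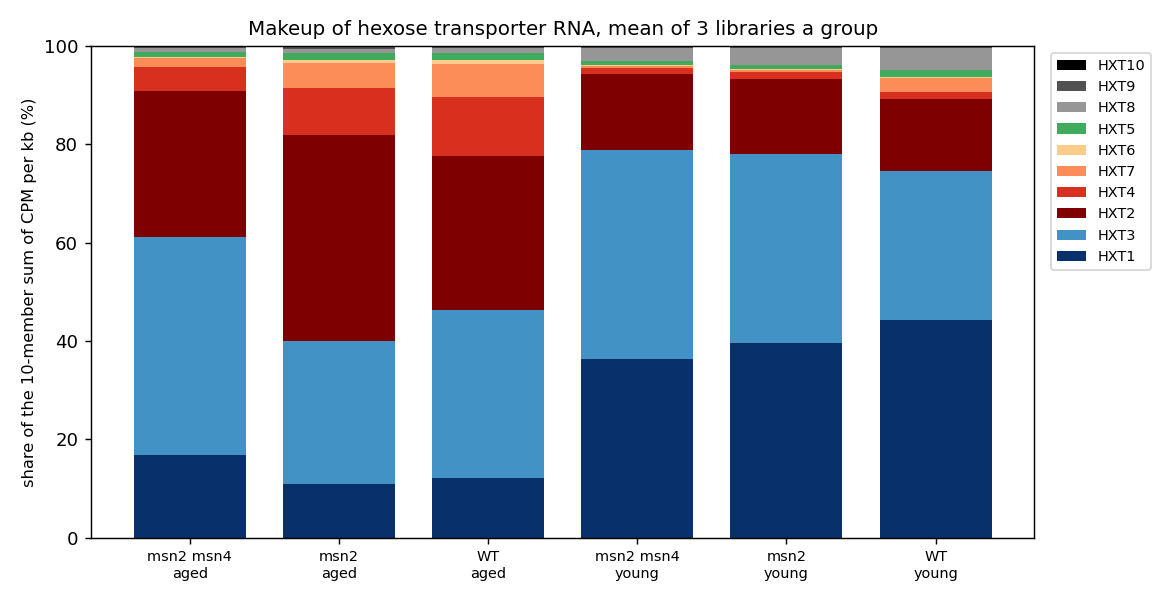
Share of the 10-member sum (CPM per kb of coding length, in percent) taken by each member, as the mean of 3 libraries in each group, with aged groups left of young ones. HXT1 takes 12.1% in aged wild type and 44.3% in young wild type.

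The second comparison set the deletion strains against wild type in young cells. In the young msn2 deletion 3 members were higher and 2 lower than in wild type, where 15% of all tested genes were higher and 15.5% lower. HXT7 fell by 2.16 ± 0.143 and HXT5 by 0.58 ± 0.124, and HXT3 rose by 0.81 ± 0.121, HXT2 by 0.53 ± 0.151 and HXT4 by 0.37 ± 0.127. The HXT6 value was 0.43 ± 0.339 and did not pass, and the summed HXT6 and HXT7 fell by 1.69 ± 0.125. HXT9 stood at 0.50 ± 0.255 and did not pass, whereas its sum with HXT11 rose by 0.42 ± 0.12. Young msn2 deletion libraries lay below those of wild type for HXT7 and HXT5 and above them for HXT3, HXT4 and, except for 1 library at 77.7 against 78.0 CPM, HXT2.

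In the young double deletion 3 members were higher and 1 lower than in wild type, where 17.9% of all tested genes were higher and 19.9% lower. HXT7 fell by 2.40 ± 0.145, HXT3 rose by 1.03 ± 0.122, HXT2 by 0.61 ± 0.151 and HXT9 by 0.76 ± 0.247. Summed with HXT11, HXT9 rose by only 0.33 ± 0.12. HXT5 had a value of -0.27 ± 0.12 and HXT6 one of 0.74 ± 0.324, neither of which passed in edgeR. The summed HXT6 and HXT7 fell by 1.72 ± 0.124. HXT6 passed in DESeq2 (0.75) and, in edgeR, with library totals alone (0.90), as did HXT1 with library totals alone (0.41). Between the young double deletion and the young msn2 deletion no member passed in edgeR or DESeq2, where 0.454% of all tested genes passed in edgeR. At an unadjusted edgeR p under 0.05 there were 2, HXT5 (0.31 ± 0.126) and HXT8 (-0.31 ± 0.133).

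Several of these young calls rested on single libraries or settings. Against wild type, the young msn2 deletion call of HXT2 was lost without its replicate 3 (0.36) or wild-type replicate 2 (0.40), and that of HXT4 without its replicates 1 (0.39) or 3 (0.29) or wild-type replicates 2 (0.31) or 3 (0.39). Without wild-type replicate 1 HXT1 (0.42) and HXT6 (1.04) also passed, as did HXT1 without msn2 deletion replicate 2 (0.43) and HXT9 without wild-type replicate 2 (0.78). The young double deletion call of HXT9 was lost without its replicate 2 (0.65) or wild-type replicate 3 (0.54). Without wild-type replicate 1 HXT1 (0.36), HXT5 (-0.34) and HXT6 (1.35) also passed there, as did HXT6 without double deletion replicate 3 (0.96). Thinned to the smallest library total, HXT4 stood at 0.03 and HXT5 at -0.28 in the msn2 deletion and HXT9 at 1.00 in the double deletion, none of which passed. With the libraries of the contrast fitted alone, the calls of HXT4 in the msn2 deletion (0.37) and HXT9 in the double deletion (0.78) were lost, and that of HXT4 was also lost with library totals alone (0.42). On library totals alone 1056 genes were higher and 674 lower in the young msn2 deletion and 2005 and 681 in the young double deletion, against 1023 and 1061, and 1221 and 1358, with TMM.

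In aged cells the strains were compared in the same way. In the aged double deletion 2 members were higher and 4 lower than in aged wild type, where 16.6% of all tested genes were higher and 19.7% lower. HXT7 fell by 1.74 ± 0.119, HXT6 by 1.63 ± 0.288, HXT4 by 1.12 ± 0.105 and HXT5 by 0.40 ± 0.118, whereas HXT1 rose by 0.67 ± 0.128 and HXT3 by 0.58 ± 0.121. Both low-affinity members were thus higher and 3 of the 4 high-affinity members lower, and HXT2 stood at 0.12 ± 0.148. The summed HXT6 and HXT7 fell by 1.72 ± 0.11. The HXT5 call was lost without aged double deletion replicate 1 (-0.27), with library totals alone (-0.30) and with libraries thinned to the smallest total (-0.23).

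In the aged msn2 deletion 2 members were higher than in aged wild type, where 13.9% of all tested genes were higher and 16% lower. HXT2 rose by 0.61 ± 0.148 and HXT10 by 0.69 ± 0.234. HXT7 stood at -0.26 ± 0.102, which missed the threshold (edgeR adjusted p = 0.0625) but passed without aged msn2 deletion replicate 2 (-0.32) and in DESeq2 (-0.27), and the summed pair fell by 0.26 ± 0.0944. The summed pair under library totals alone stood at -0.12 and did not pass. The HXT10 call was lost without msn2 deletion replicate 2 (0.72) or 3 (0.54) and without wild-type replicate 1 (0.71), 2 (0.71) or 3 (0.65), and with libraries thinned to the smallest total (0.63). HXT5 passed with library totals alone (0.36). With the 6 aged libraries of these strains fitted alone, HXT5 (0.22), HXT6 (-0.29), HXT7 (-0.26) and HXT9 (0.37) passed as well.

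Set against the aged msn2 deletion, the aged double deletion had 2 members higher and 5 lower, where 11.3% of all tested genes were higher and 13.5% lower. HXT7 fell by 1.48 ± 0.119, HXT6 by 1.34 ± 0.29, HXT4 by 0.99 ± 0.105, HXT5 by 0.62 ± 0.117 and HXT2 by 0.49 ± 0.149. HXT1 and HXT3 rose by 0.62 each, with SEs of 0.128 and 0.121. All 4 high-affinity members were lower and both low-affinity members higher. The HXT2 call was lost without msn2 deletion replicate 1 (-0.46), msn2 deletion replicate 2 (-0.44) or double deletion replicate 3 (-0.39). HXT10 stood at -0.85 ± 0.34 and passed without double deletion replicate 3 (-1.71), the library with 22 of its counts. On library totals alone 1344 genes were higher and 995 lower in the aged double deletion than in wild type, 1658 and 507 in the aged msn2 deletion than in wild type, and 293 and 1017 in the double deletion than in the msn2 deletion. With TMM these were 1133 and 1345, 952 and 1095, and 771 and 925.

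**Figure D5:**
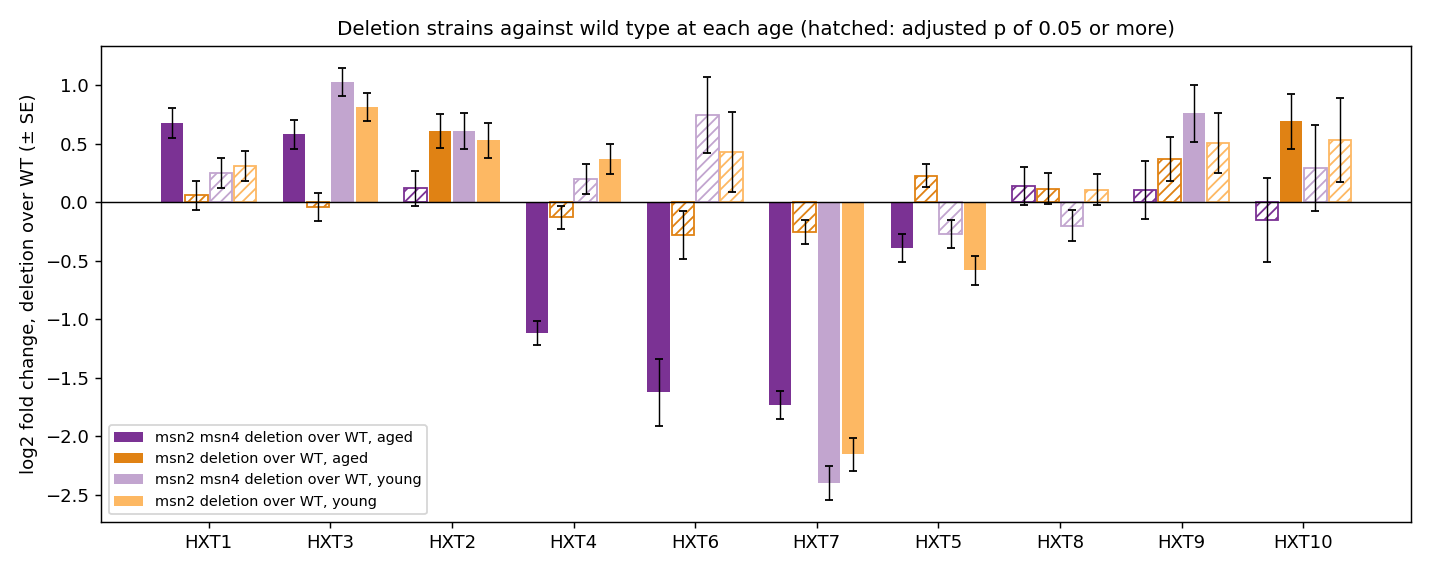
Log2 fold change between strains for each member, in aged and in young cells, for the double deletion and the msn2 deletion against wild type, with bars of 1 SE and hatching where the adjusted p was 0.05 or more. HXT7 lies at -2.40 and -2.16 in the young double deletion and msn2 deletion and at -1.74 and -0.26 in the aged ones.

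The third question was whether the age effect of a member differed between strains, tested as a difference of age effects in the same fit. The age effect in the msn2 deletion exceeded that in wild type for HXT7 (by 1.90 ± 0.177) and HXT5 (by 0.81 ± 0.159) and was smaller for HXT3 (-0.85 ± 0.17) and HXT4 (-0.50 ± 0.16), where 7.54% of all tested genes passed with a larger and 7.23% with a smaller value. The HXT5 difference was not called with libraries thinned to the smallest total (0.54). The HXT4 difference was the least stable of these. It was lost with the replicate number as a block (-0.50), with library totals alone (-0.41), with thinned libraries (-0.11), and without wild-type aged replicate 1 (-0.44) or 3 (-0.46) or young replicate 2 (-0.44) or 3 (-0.52), or msn2 deletion aged replicate 1 (-0.52) or 3 (-0.40) or young replicate 1 (-0.52) or 3 (-0.42). HXT6 stood at -0.71 ± 0.394 and passed without wild-type young replicate 1 (-1.32). For the summed HXT6 and HXT7 the difference was 1.43 ± 0.157 (edgeR adjusted p = 9.06e-06).

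Between the double deletion and wild type the age effect was smaller for HXT6 (-2.37 ± 0.436) and HXT4 (-1.32 ± 0.165) and larger for HXT7 (0.67 ± 0.191), where 7.17% of all tested genes passed with a larger and 8.99% with a smaller value. HXT6 and HXT7 thus differed in opposite directions, and for their sum the difference was -0.01 ± 0.191 (edgeR adjusted p = 0.989). Without wild-type young replicate 1 the HXT6 value was -2.98 and HXT3 passed with -0.57. The HXT7 difference was lost with library totals alone (0.58), and with thinned libraries HXT6 (-1.92) and HXT7 (0.60) both lost their calls while HXT2 (-0.58) gained one.

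Between the double deletion and the msn2 deletion the age effect was smaller for HXT6 (-1.66 ± 0.427), HXT7 (-1.23 ± 0.212), HXT5 (-0.93 ± 0.172) and HXT4 (-0.82 ± 0.163) and larger for HXT1 (0.68 ± 0.18), where 1.71% of all tested genes passed with a larger and 4.46% with a smaller value. The summed pair differed by -1.43 ± 0.178. With libraries thinned to the smallest total HXT4 (-0.77), HXT5 (-0.76), HXT6 (-1.29) and HXT7 (-1.31) lost their calls. The HXT1 difference was lost with library totals alone (0.52) and without msn2 deletion aged replicate 1 (0.68) or 3 (0.63) or young replicate 3 (0.52), or double deletion aged replicate 1 (0.66) or 2 (0.62) or young replicate 2 (0.60). That of HXT6 was lost without msn2 deletion young replicate 3 (-1.57), double deletion aged replicate 1 (-1.38) or double deletion young replicate 1 (-1.43). HXT2 stood at -0.57 ± 0.211 and passed without msn2 deletion young replicate 3 (-0.74) and with thinned libraries (-0.61). On library totals alone the genes that passed with a larger and a smaller age effect were 504 and 180 for the msn2 deletion against wild type, 239 and 684 for the double deletion against wild type, and 28 and 542 for the double deletion against the msn2 deletion. With TMM they were 515 and 494, 490 and 614, and 117 and 305.

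The other hexose transporter genes and the genes that govern the family were read from lists written from textbook knowledge. Of the 8 other hexose transporter genes 7 were tested, and HXT16 did not pass the filter on low counts. With age 5 of the 7 rose in the double deletion, 6 in the msn2 deletion and 6 in wild type, where 31.2%, 36.6% and 33.3% of all tested genes rose. In wild type HXT13 rose by 2.26 ± 0.357, HXT11 by 1.25 ± 0.166 and HXT12 by 1.20 ± 0.189. The HXT13 value rests on only 3 to 19 counts in the young wild-type libraries. GAL2, the galactose carrier, stood at 0.17 ± 0.209, 0.36 ± 0.164 and -0.09 ± 0.166 in the same order of strains and did not pass. The median of the 7 in wild type was 1.20, against 0.03 for all genes. Between strains, HXT14 rose in the msn2 deletion against wild type in both aged (0.79 ± 0.191) and young cells (0.70 ± 0.246). It did not pass in the aged double deletion against aged wild type. HXT14 stood at 1.17 ± 0.306 CPM in the aged double deletion, from 7.17 to 10.8 counts a library. The aged msn2 deletion had 2.36 ± 0.268 CPM and aged wild type 1.37 ± 0.174. In young cells HXT14 stood at 1.70 ± 0.236 CPM in the double deletion, 1.48 ± 0.346 in the msn2 deletion and 0.92 ± 0.198 in wild type.

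Of the 8 genes of glucose sensing through Rgt1, 4 rose and 2 fell with age in the double deletion, 4 rose and 1 fell in the msn2 deletion, and 4 rose and 2 fell in wild type. Of all tested genes 31.2%, 36.6% and 33.3% rose and 29.9%, 33% and 30.6% fell. The 2 of 8 that fell in the double deletion and in wild type lay near that share. RGT1, the repressor of HXT genes, rose by 0.48 ± 0.098, 0.73 ± 0.089 and 0.73 ± 0.09 in the double deletion, msn2 deletion and wild type. MTH1, its glucose-sensitive partner, rose by 0.89 ± 0.128, 1.00 ± 0.104 and 0.60 ± 0.105, while SNF3, the sensor of low glucose, rose by 0.38 ± 0.131 in the msn2 deletion and 0.64 ± 0.133 in wild type. Between strains MTH1 fell by 0.50 ± 0.113 in the young double deletion against young wild type and by 0.58 ± 0.118 in the aged double deletion against the aged msn2 deletion.

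Of the 10 genes of glucose repression through Mig1 and Snf1, 4 fell and 2 rose with age in the double deletion, 5 fell and 2 rose in the msn2 deletion, and 3 fell in wild type. Of all tested genes 29.9%, 33% and 30.6% fell and 31.2%, 36.6% and 33.3% rose in these strains, so the 3 of 10 that fell in wild type lay at that share, and the counts that rose lay below theirs. MIG2, a glucose-induced repressor, fell by 1.09 ± 0.119, 2.02 ± 0.108 and 1.86 ± 0.11 in the same order. It stood at 24.3 ± 1.88 CPM in the aged double deletion, 15.8 ± 1.26 in the aged msn2 deletion and 12.8 ± 0.927 in aged wild type, against 51.4 ± 3.67, 63.9 ± 11.3 and 46.6 ± 3.54 CPM in young cells of the same strains. Its age effect in the double deletion was less negative than in wild type by 0.77 ± 0.162. MIG3, a related repressor, rose by 1.00 ± 0.128 in the aged double deletion against aged wild type.

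Of the 4 genes of glucose phosphorylation, the step after uptake, 2 rose with age in the double deletion and 3 each in the msn2 deletion and wild type, where 31.2%, 36.6% and 33.3% of all tested genes rose. HXK1, hexokinase 1, stood at 13.8 ± 2.96 CPM in the aged double deletion, 51.1 ± 4.11 in the aged msn2 deletion and 185 ± 11.7 in aged wild type. In young cells it stood at 1.57 ± 0.0801 CPM, 2.88 ± 0.249 and 48.7 ± 9.83 in the same order. HXK1 was thus lower in the deletion strains at both ages. Against young wild type it fell by 4.96 ± 0.162 in the double deletion and 4.08 ± 0.15 in the msn2 deletion, and against aged wild type by 3.78 ± 0.143 and 1.85 ± 0.114. GLK1, glucokinase, fell by 2.41 ± 0.0961 and 2.17 ± 0.0951 in the young double deletion and msn2 deletion, and by 2.84 ± 0.0991 and 1.25 ± 0.0889 in the aged ones. HXK2, hexokinase 2, was not called lower in either. It stood at 487 ± 28.0, 324 ± 51.3 and 397 ± 43.6 CPM in the aged double deletion, msn2 deletion and wild type. In young cells it stood at 472 ± 56.4, 371 ± 11.3 and 371 ± 38.7 CPM. It was called higher in the young double deletion than in young wild type (0.35).

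The genes most like each member over the 18 libraries were found among 5602 genes outside the family by Pearson's r of log2 CPM. The 18 points share these libraries and fall into aged and young groups, and r is given as a description only. Closest were SSA4, a heat-inducible chaperone, to HXT4 (r = 0.995), TIR2, a cell wall mannoprotein, to HXT2 (0.989), APA2, a nucleotide phosphorylase, to HXT5 (0.982) and UBI4, polyubiquitin, to HXT7 (0.980). SNM1, a subunit of RNase MRP, was closest to HXT8 (0.980), FKS1, glucan synthase, to HXT3 (0.978), and MNN11, a Golgi mannosyltransferase, to HXT1 (0.944). YML131W was closest to HXT6 (0.940), PPZ1, a protein phosphatase, to HXT9 (0.918), and TAD2, a subunit of a tRNA deaminase, to HXT10 (0.902). No gene was the closest to more than 1 member.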

How the data were processed

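PolyA RNA from 18 yeast samples was sequenced as paired reads from directional libraries (NEB Ultra II Directional), per the labels. Per the submitters' processing notes, featureCounts (Subread 1.6.2), STAR 2.7.6a, cutadapt 2.6 and bcl2fastq were used with build R64 (sacCer3), and the counting options are not given in the sources used here. The authors deposited expected counts (estimated, partly fractional) for 7118 features, and 54.6% of values above 0 were not whole (33.3% for HXT6 and for HXT7). These counts were rounded for the fit.

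All 18 libraries were fitted together in edgeR 4.0.16 (R 4.3.3) with TMM factors, filterByExpr, which left out 285 features, and 1 mean per group, with 12 residual degrees of freedom. Quasi-likelihood F tests were run for 12 contrasts, with Benjamini-Hochberg adjustment within each, and SEs were taken as the log2 fold change over the root of F. The common biological coefficient of variation was 0.0922. HXT6 and HXT7, and HXT9 and HXT11, were also fitted as sums. The procedure was run on simulated counts for the wild-type age contrast, with the same spread for every gene and changes balanced in direction. Such counts cannot check the choice of scaling or spreads that differ between genes. Depth limits the aged double deletion most, and counting error is part of the fitted spread.

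Sequences came from the RefSeq R64 genome, with identities from alignments by Biopython 1.88. Named genes were all 10 members in all 12 contrasts, up to 3 genes per list by smallest p in a contrast, which could then be given in others, and for each member the gene of highest correlation among those whose mean log2 CPM was at least 3. MSN2 and MSN4 are given as the check of the deletions. The members and lists were chosen with earlier results of these data known. Other settings tried were library totals or RLE factors, DESeq2 1.42.0, other filters, removal of 166 mitochondrial, ribosomal RNA and Ty features, a replicate block, the contrast's libraries alone, a minimum log2 fold change of 0.5 in the test, thinning to the smallest total, and each library left out in turn. A fit without the aged double deletion was added after the data were seen.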

Additional observations from a re-analysis of the deposited data

Results flagged for a closer look

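The age effect of a member, aged over young, differed between strains by a test of the difference itself (edgeR, adjusted p under 0.05 over all tested genes) in 12 cases, all given as log2 differences. In the msn2 deletion against wild type the age effect was larger for HXT7 by 1.90 and for HXT5 by 0.81, and it differed by -0.85 for HXT3 and -0.50 for HXT4. In the double deletion against wild type it differed by -2.37 for HXT6, -1.32 for HXT4 and 0.67 for HXT7. In the double deletion against the msn2 deletion it differed by -1.66 for HXT6, -1.23 for HXT7, -0.93 for HXT5, -0.82 for HXT4 and 0.68 for HXT1. The 3 HXT7 and 2 HXT6 values depend on how reads of these near-identical genes were split, and for their sum the differences were 1.43, -0.01 and -1.43 in the same order of contrasts. Groups held 3 libraries each, too few for a test of single libraries that stand apart.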

How the results depend on the processing

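Of 2230 values of a member in a contrast under 30 other settings, 2105 kept their side of the threshold, 96 lost a call and 29 gained one. None changed sign where called, and values called in neither setting were not checked for sign. With library totals alone in place of TMM the high-affinity sum was 351 CPM per kb in the aged double deletion, 563 in the aged msn2 deletion and 401 in aged wild type, against 42.6 in young wild type, and the low-affinity sum was 588, 394 and 363 in the aged groups, and 282 and 164 in the young double deletion and young wild type. The summed HXT6 and HXT7 then stood at -0.12 in the aged msn2 deletion against aged wild type. With HXT5 counted as high-affinity, the low-affinity share was 46.9% in aged wild type, 81.1% in the young msn2 deletion and 78.3% in young wild type. Without division by length it was 63.5% in the aged double deletion, 42.0% and 48.2% in the aged msn2 deletion and wild type, and 82.3% in the young msn2 deletion. The cause of these moves was not tested beyond the construction of each setting.

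Counts of members that passed moved as follows. Tested against a log2 fold change of 0.5, a stricter question, 5 passed for age in the double deletion, 3 for the aged double deletion against wild type and 3 against the msn2 deletion, 2 for the young double deletion and 1 for the young msn2 deletion against wild type, 0 (2 at an adjusted p under 0.05 against no change) for the aged msn2 deletion against wild type, and 1 each for the age effect of the msn2 deletion against wild type and of the double deletion against the msn2 deletion. Thinned to the smallest total, 3 passed for the young and 1 for the aged msn2 deletion against wild type, and 2 each for those same age effects. With the summed pairs, 1 of 9 passed for the age effect of the double deletion against wild type. For the aged msn2 deletion against wild type, 1 of 8 passed with a 10 CPM filter and 6 with its libraries fitted alone. The share of all tested genes that passed is not given for these settings. A move in the members therefore cannot be told apart from a general change in calls.

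With single libraries left out, 10 members passed for age in the msn2 deletion and in wild type each time and 7 to 8 in the double deletion. For the young strains 3 to 7 passed for the double deletion against wild type, 7 without wild-type replicate 1, 3 to 7 for the msn2 deletion against wild type, 3 without its replicate 3, and 0 to 0 for the double deletion against the msn2 deletion. For the aged strains these were 5 to 6, 1 to 2 and 6 to 7. For the age effects 3 to 4 passed for the double deletion against wild type, 3 to 5 for the msn2 deletion against wild type and 3 to 5 for the double deletion against the msn2 deletion. These ranges too stand without the share of all tested genes that passed in the same fits. The replicate block lost 1 call of a member, HXT4 in the age effect of the msn2 deletion against wild type (-0.50), and residuals of equally numbered libraries did not all correlate above 0.1 in any of the 9 contrasts (in wild type aged against young 0.105, 0.290 and 0.0861), so the numbers were not read as pairs. With the aged double deletion left out, no call of the other contrasts changed. Depth limits HXT10 and HXT6 in the aged double deletion most.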

Other observations

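Carriers of other sugars were read beside the family. Of 4 maltose and alpha-glucoside transporters, 4 rose with age in the msn2 deletion and 3 in wild type, where 36.6% and 33.3% of all tested genes rose. MAL11 rose by 0.75 ± 0.162 in the msn2 deletion and 0.90 ± 0.159 in wild type, MAL31 by 0.42 ± 0.127 and 0.98 ± 0.126, and MPH3 by 1.09 ± 0.313 and 1.25 ± 0.343. In the double deletion MAL11 stood at 0.29 ± 0.206, MAL31 at 0.26 ± 0.162, MPH3 at 0.50 ± 0.488 and MPH2 at -0.36. None of the 4 passed there, where 31.2% of all tested genes rose and 29.9% fell. MPH3 had 5 to 13.3 counts in the aged libraries of that strain. The age effect of 1 of the 4 was smaller in the double deletion than in wild type, where 8.99% of all tested genes passed as smaller. Against the msn2 deletion none differed, where 1.71% passed as larger and 4.46% as smaller. MAL31 stood at 7.69 ± 1.28 CPM in the aged double deletion, 10.2 ± 0.304 in the aged msn2 deletion and 15.1 ± 0.988 in aged wild type, against 6.36 ± 0.392, 7.64 ± 1.15 and 7.68 ± 1.17 CPM in young cells of the same strains.

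Among 4 genes of transporter turnover at the plasma membrane, ROG3, an arrestin-related adaptor of the ubiquitin ligase Rsp5, rose with age by 0.61 ± 0.126 in the double deletion, 0.75 ± 0.11 in the msn2 deletion and 0.82 ± 0.11 in wild type. ROD1, a related adaptor, fell by 0.43 ± 0.121 in the double deletion, and RSP5 fell by 0.36 ± 0.119 there. CSR2, another adaptor that acts on high-affinity carriers, rose by 0.49 ± 0.138 in the msn2 deletion and stood at 0.32 ± 0.167 and 0.31 ± 0.138 in double deletion and wild-type cells, neither of which passed.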
